A study of Mus musculus with 18 samples.

Results

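Transcripts of 7 enzymes that use arginine, make or modify polyamines, or make itaconate were followed in sorted mouse lung neutrophils: arginase 1 (Arg1), arginase 2 (Arg2), inducible nitric oxide synthase (Nos2), argininosuccinate synthase (Ass1), ornithine decarboxylase (Odc1), spermidine/spermine acetyltransferase (Sat1) and aconitate decarboxylase (Acod1). They were chosen by gene name, with earlier results of these data known. Counts of the 7 set beside shares of all genes are therefore given as description. All 7 of 7 were found among the 40481 gene IDs of the count table, and all 7 were among the 16575 genes with enough reads to be tested. The samples were 18 RNA sequencing libraries in 6 groups of 3: zymosan CD101neg, zymosan CD101pos and naive CD101pos neutrophils from mice labelled CGD, each set against the same cells of wild-type (WT) mice. CGD mice carried a knockout of Cybb, which encodes the catalytic gp91phox subunit of the phagocyte NADPH oxidase, and are a model of chronic granulomatous disease, in which phagocytes fail to make an oxidative burst. Both genotypes were on the C57BL/6 background. Zymosan, a yeast cell wall preparation, was given through the nose at 20 µg, and lungs were collected 24 hours later. The sort gate took live cells positive for CD45, CD11b and Ly6G and then split them by CD101, a surface protein gained late in neutrophil maturation, so that the labels call CD101neg cells immature and CD101pos cells mature. Zymosan mice were females of 13 weeks and naive mice were males of 12 weeks, so the effects of zymosan, sex and age cannot be told apart. The labels do not state that replicates came from separate animals, and p-values measure only the spread between these libraries.

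Arginine stands at a branch point of myeloid cell metabolism. Arginases split it into urea and ornithine, whereas inducible nitric oxide synthase turns it into nitric oxide and citrulline, and argininosuccinate synthase takes the first step by which citrulline is made back into arginine. Ornithine decarboxylase commits ornithine to the polyamines putrescine, spermidine and spermine, and Sat1 acetylates spermidine and spermine so that they can leave the cell or be broken down. Aconitate decarboxylase diverts cis-aconitate from the citric acid cycle into itaconate, a product of activated macrophages and neutrophils that inhibits succinate dehydrogenase and activates the transcription factor Nrf2.

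Libraries held between 33.7 and 67.9 M counts in genes, and replicates of a group correlated across genes at 0.958 to 0.981. Cybb stood at 17.1% of its WT level in CGD CD101neg cells, 18.9% in CGD CD101pos cells and 21.3% in CGD naive cells, so the counts match the genotype labels. Cd101 was lower in CD101neg than in CD101pos cells, with a log2 fold change of -0.77 ± 0.22 (SE) in CGD mice and -1.28 ± 0.23 in WT mice. These calls were kept in 8 of 13 alternative analyses in CGD and 8 of 14 in WT mice. After zymosan, Cd101 was also lower in CGD than in WT cells, by -1.45 ± 0.23 in CD101neg and -1.95 ± 0.23 in CD101pos cells. CGD CD101pos libraries, at 95.9 to 111.6 counts per M, lay below WT CD101neg libraries, at 155.6 to 185.1 counts per M. None of 10 neutrophil markers was at 0 in every library of a group, and their summed level ranged from 18419 to 115327 counts per M (CPM). WT CD101neg and CD101pos libraries of replicate 2 had the highest neutrophil sums of their groups, 81939.7 and 85681 CPM, as had CGD naive replicate 3 with 74811 CPM. Of 6 B cell markers, all 6 were called lower in CGD than in WT CD101neg cells, 5 in CD101pos cells, and all 6 in zymosan than in naive cells of each genotype, and their part in the results was not tested. The scaling factors (TMM) ranged from 0.702 to 1.24, and lay between 0.702 and 0.809 in CGD CD101neg libraries and between 1.16 and 1.24 in WT naive libraries. In bulk libraries such as these, a change in the share of cells that carry a transcript and a change in its amount per cell cannot be told apart.

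The 7 transcripts differed widely in level, given here per kb of exon so that genes can be compared. Acod1, Arg2 and Sat1 were the 3 most abundant, with group means of 300.3 to 1418 CPM per kb for Acod1, 364 to 618 for Arg2 and 281 to 670.1 for Sat1. Acod1 had the highest mean of the 3 in each group but WT naive cells, where Arg2 had. Nos2 covered the widest range among the other 4, from 0.169 CPM per kb in WT naive cells to 18.4 in CGD CD101neg cells. Ass1 lay between 2.59 and 7.96 CPM per kb, Odc1 between 1.25 and 3.32, and Arg1 between 0.0413 and 3.09. Arg2 was thus the prevailing arginase transcript in all 6 groups.

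The order of the groups differed between genes, and many neighbours in it lay closer than the larger of their SDs (n = 3 each). Acod1 averaged 3718 ± 536 CPM in CGD CD101neg cells, 2620.5 ± 203 in CGD CD101pos, 1819 ± 107 in WT CD101neg, 1775 ± 189.6 in WT CD101pos, 1357 ± 432 in CGD naive and 788 ± 201 in WT naive cells (SD). Both WT zymosan groups, and WT CD101pos and CGD naive cells, were closer than their spread for Acod1, and the other steps exceeded it. Odc1 ranked the 3 CGD groups above the 3 WT groups, with 11.3 ± 1.38 CPM in CGD CD101neg, 10.3 ± 2.20 in CGD CD101pos, 8.35 ± 1.61 in CGD naive, 6.96 ± 0.754 in WT CD101neg, 5.79 ± 1.18 in WT CD101pos and 4.24 ± 0.254 in WT naive cells. Of those Odc1 steps, the last alone exceeded the spread. Arg2 lay between 690.2 ± 85.0 and 882 ± 193 CPM in the 4 zymosan groups, which did not differ beyond their spread in that order, and at 547 ± 125 in CGD naive and 519 ± 36.1 CPM in WT naive cells.

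**Figure D1:**
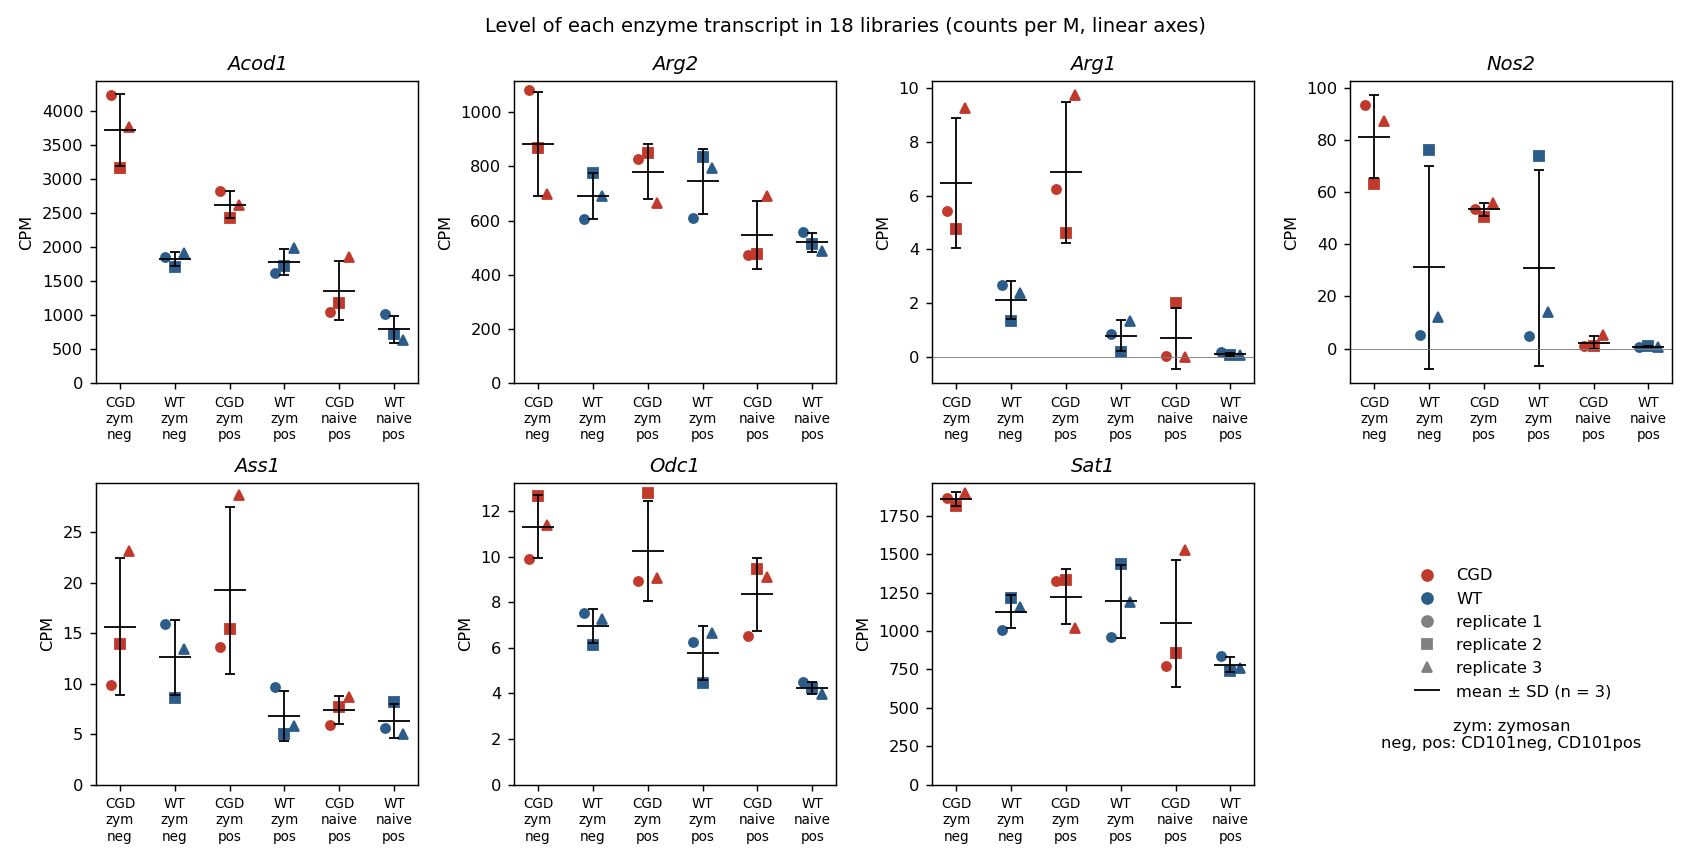
Level of each of the 7 transcripts in CPM (linear axes) in every library, by group, with CGD in red and WT in blue, the replicate number as the symbol and the mean ± SD of 3 libraries in black. Acod1 reaches 4233 CPM in a CGD CD101neg library, Nos2 is high in a single WT library of each zymosan sort (76.0 and 74.0 CPM), and the mean of Odc1 lies above that of the WT group beside it in each of the 3 CGD groups.

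Upstream sequence was available from RefSeq (GRCm38.p6) for 4 of the 7 genes, Acod1, Odc1, Ass1 and Sat1. It is shown because these 4 were higher in CGD than in WT neutrophils in at least 1 zymosan sort, as described further on. Each stretch is the 250 bases before the annotated start, 5′ to 3′ on the strand of the gene. Capitals mark matches, on either strand, to GGG and CC with any 5 bases between them, a loose form of the NF-kB site, to the E-box CACGTG of MYC and MAX, and to the hypoxia response core ACGTG, which the E-box contains.
Acod1, chr14:103046762-103047011, plus strand: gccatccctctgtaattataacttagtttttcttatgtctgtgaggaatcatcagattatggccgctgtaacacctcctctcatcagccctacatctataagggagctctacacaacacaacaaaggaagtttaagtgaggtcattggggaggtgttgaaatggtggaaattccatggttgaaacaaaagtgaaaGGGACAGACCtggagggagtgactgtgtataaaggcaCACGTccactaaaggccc
Odc1, chr12:17544623-17544872, plus strand: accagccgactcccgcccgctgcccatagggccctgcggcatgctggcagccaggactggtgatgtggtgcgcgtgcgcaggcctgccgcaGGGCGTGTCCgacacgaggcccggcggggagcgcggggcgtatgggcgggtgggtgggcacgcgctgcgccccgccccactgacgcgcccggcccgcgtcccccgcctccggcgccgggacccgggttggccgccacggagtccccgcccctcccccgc
Ass1, chr2:31470020-31470269, plus strand: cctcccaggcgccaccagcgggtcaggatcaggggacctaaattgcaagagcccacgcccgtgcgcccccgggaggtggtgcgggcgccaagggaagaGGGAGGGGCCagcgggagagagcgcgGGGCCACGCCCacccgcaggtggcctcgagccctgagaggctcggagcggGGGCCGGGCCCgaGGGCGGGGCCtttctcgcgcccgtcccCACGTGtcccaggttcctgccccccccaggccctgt
Sat1, chrX:155216450-155216699, minus strand: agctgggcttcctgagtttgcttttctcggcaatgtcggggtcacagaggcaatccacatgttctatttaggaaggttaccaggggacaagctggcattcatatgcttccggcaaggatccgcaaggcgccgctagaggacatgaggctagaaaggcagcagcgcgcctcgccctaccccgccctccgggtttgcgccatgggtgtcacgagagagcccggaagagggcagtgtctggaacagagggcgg

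The 4 stretches differed in base composition, with G and C making up 44.4% of the Acod1 stretch, 59.6% of Sat1, 75.6% of Ass1 and 80% of Odc1. The Acod1 stretch held GGGACAGACC starting 55 bases before the start and the hypoxia core on the minus strand 18 bases before it. The Odc1 stretch held GGGCGTGTCC 159 bases before the start, and the Ass1 stretch held 6 matches to the NF-kB letters, some of them overlapping, and an E-box 36 bases before the start. The Sat1 stretch held none of the motifs searched. Over 32817 promoter stretches of the same length, 45.8% held the NF-kB letters, 6.02% the E-box and 16.6% the hypoxia core, so such matches are common. The other motifs searched, none of which was found in the 4 stretches, were GAAA repeated after any 2 bases (interferon-stimulated response element, in 2.97% of promoters), TTCNNNGAA (gamma-activated site, 7.01%), TTC and GAA with any 4 bases between them (STAT6, 5.85%), TTGCNNAA (C/EBP, 9.57%), TGACGTCA (cAMP response element, 1.55%), TGANTCA (AP-1, 6.75%) and TGACNNNGC (antioxidant response core, 10.2%).

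In zymosan CD101neg neutrophils, Acod1, which makes itaconate, and Odc1 and Sat1, which act on polyamines, were higher in CGD than in WT cells. Arg1, Arg2, Nos2 and Ass1 did not pass the test. These 3 of 7 stand beside 6.67% of all tested genes called higher and 12.9% called in either direction. Libraries of the groups did not overlap for 4 of the 7, all higher in CGD, beside 14.7% of all genes. The median log2 fold change of the 7 was 0.72, against -0.08 over all genes.

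Acod1 stood at 4233, 3164 and 3758 CPM in CGD CD101neg libraries, against 1849, 1701 and 1909 CPM in WT CD101neg libraries. Every CGD library lay well above every WT library. Its log2 fold change was 1.03 ± 0.23 (SE), a 2.04-fold difference, with an adjusted p of 0.00624 in edgeR's quasi-likelihood test after Benjamini-Hochberg adjustment over all genes. This call held in all 13 alternative analyses, over which the log2 fold change lay between 0.53 and 1.13.

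The polyamine genes differed by less. Odc1, the first enzyme of polyamine synthesis, stood at 9.88, 12.6 and 11.4 CPM in CGD CD101neg libraries, against 7.52, 6.10 and 7.26 CPM in WT CD101neg libraries. Sat1 stood at 1864, 1813 and 1899.7 CPM in CGD CD101neg libraries, against 1005, 1216 and 1158 CPM in WT CD101neg libraries. Neither gene's groups overlapped, and the 3 CGD values of Sat1 lay close together. The log2 fold changes were 0.70 ± 0.22 for Odc1 (adjusted p = 0.0399, edgeR) and 0.72 ± 0.23 for Sat1 (adjusted p = 0.0472, edgeR). Both calls lie near the threshold and were lost without any 1 of the 6 libraries, with adjusted p between 0.0513 and 0.147 for Odc1 and between 0.0605 and 0.145 for Sat1. With scaling by library size alone, under which the median log2 fold change of all genes was -0.57, the values were 0.21 for Odc1, 0.25 for Sat1 and 0.53 for Acod1. How reads shared between Odc1 and its processed pseudogenes were counted is not given in the sources used here.

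The arginine enzymes did not pass in CD101neg cells. Arg1 stood at 5.43, 4.76 and 9.26 CPM in CGD CD101neg libraries, against 2.67, 1.32 and 2.38 CPM in WT CD101neg libraries, and the groups did not overlap. Its log2 fold change was 1.60 ± 0.93 (adjusted p = 0.277, edgeR), and a fit of these 2 groups alone gave 1.64 ± 0.37 (adjusted p = 0.0318). That fit was the 1 of 13 alternatives in which Arg1 passed. Arg2 stood at 1083, 867 and 698 CPM in CGD CD101neg libraries, against 606, 776 and 689.6 CPM in WT CD101neg libraries, with overlapping groups and a log2 fold change of 0.35 ± 0.21 (adjusted p = 0.285, edgeR) that turned to -0.13 with library size scaling. Ass1 stood at 9.90, 13.9 and 23.1 CPM in CGD CD101neg libraries, against 15.9, 8.55 and 13.4 CPM in WT CD101neg libraries, and its difference was smaller than its standard error.

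Nos2 split the WT libraries. It stood at 93.3, 63.1 and 87.4 CPM in CGD CD101neg libraries, against 5.35, 76.0 and 12.0 CPM in WT CD101neg libraries. Replicate 2 of WT lay within the CGD range, and the other 2 WT libraries lay far below it. The log2 fold change was 1.39 ± 0.94 (adjusted p = 0.361, edgeR). Without WT CD101neg replicate 2 it was 3.23 ± 0.97 (adjusted p = 0.0453), and without both WT zymosan libraries of that number, an analysis chosen after the values were seen, 3.19 ± 0.70 (adjusted p = 0.0101). WT CD101neg replicate 2 also had 99.9 CPM of Ly6g, the gene of the sorting marker, against 6.78 and 24.7 CPM in the other WT CD101neg libraries, while CGD CD101neg libraries had 229.8, 107 and 59.7 CPM. The neutrophil marker sum was 50823 to 115327 CPM in CGD CD101neg libraries, and 18419 to 81939.7 CPM in WT CD101neg libraries, with 0 of the 10 markers called. The part of neutrophil content in the Nos2 difference was not tested.

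**Figure D2:**
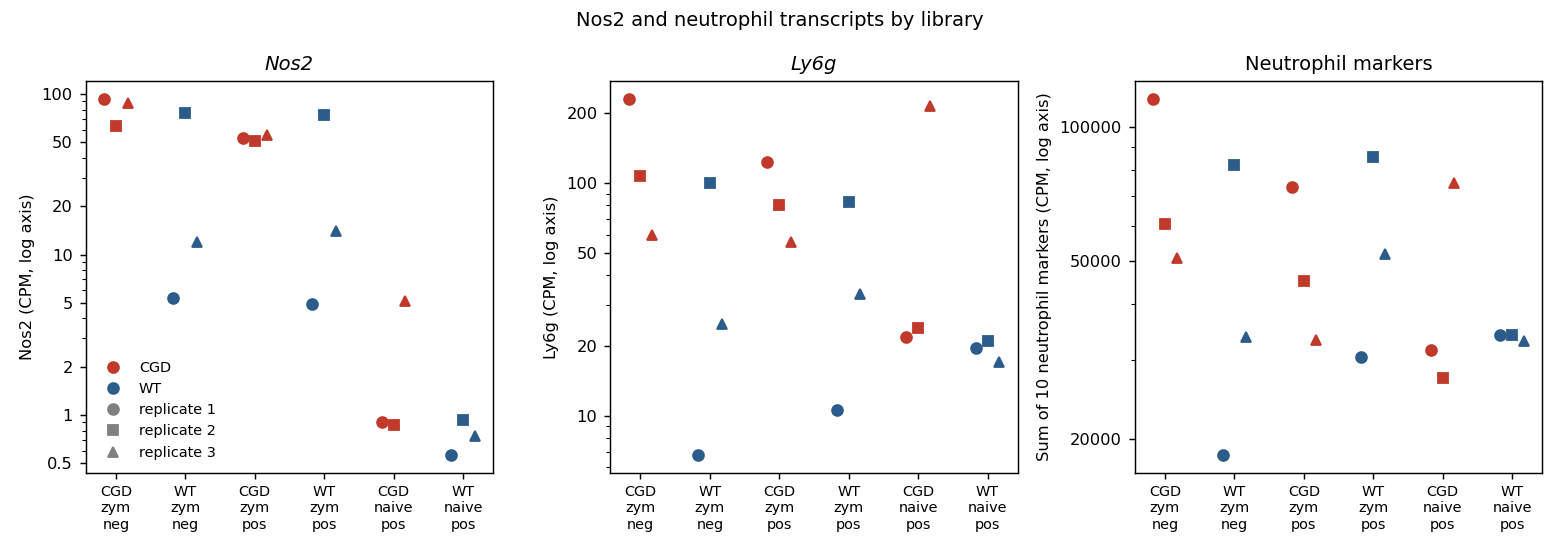
Nos2, Ly6g and the sum of 10 neutrophil markers in CPM (log axes) in each of the 18 libraries, by group, CGD in red and WT in blue, with the replicate number as the symbol. In WT zymosan cells, replicate 2 is the highest library of both sorts in all 3 panels, and in CGD naive cells replicate 3 is.

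In zymosan CD101pos neutrophils, Ass1 and Odc1 were higher in CGD than in WT cells. The other 5 genes did not pass, although Arg1 and Acod1 were higher in every CGD library than in every WT library. The 2 of 7 called stand beside 2.77% of all tested genes called higher and 5.3% called in either direction, and the 4 of 7 without overlap beside 12%. The median log2 fold change of the 7 was 0.79, against 0.02 over all genes.

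Ass1 stood at 13.6, 15.4 and 28.7 CPM in CGD CD101pos libraries, against 9.63, 5.06 and 5.77 CPM in WT CD101pos libraries. All 3 CGD libraries lay above the WT libraries, with replicate 3 the highest. The log2 fold change was 1.49 ± 0.35, 2.82-fold, with an adjusted p of 0.0180 (edgeR). The call was lost without CGD CD101pos replicate 3 (1.09, adjusted p = 0.113), WT CD101pos replicate 2 (1.32, adjusted p = 0.0917) or WT CD101pos replicate 3 (1.39, adjusted p = 0.0921). Over all alternatives it was kept in 8 of 13.

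Odc1 stood at 8.92, 12.8 and 9.07 CPM in CGD CD101pos libraries, against 6.26, 4.45 and 6.65 CPM in WT CD101pos libraries, so the groups were apart. Its log2 fold change was 0.83 ± 0.22 (adjusted p = 0.0310, edgeR), and the call was lost without CGD CD101pos replicate 2 (0.64, adjusted p = 0.201), WT CD101pos replicate 2 (0.67, adjusted p = 0.158) or WT CD101pos replicate 3 (0.94, adjusted p = 0.0596). Over all alternatives the Odc1 call was kept in 6 of 13. Sat1, called in CD101neg cells, stood at 1325, 1329.7 and 1019 CPM in CGD CD101pos libraries, against 958, 1436 and 1189 CPM in WT CD101pos libraries, which overlap, and its difference was smaller than its standard error.

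Arg1 had the largest fitted difference of the 7 in CD101pos cells, at low levels. It stood at 6.27, 4.61 and 9.76 CPM in CGD CD101pos libraries, from 303, 300 and 699 reads, against 0.851, 0.184 and 1.32 CPM in WT CD101pos libraries, from 56, 9 and 73 reads. The groups were far apart. The log2 fold change was 3.12 ± 1.00 (adjusted p = 0.0854, edgeR), and 3.11 ± 0.56 in a fit of these 2 groups alone (adjusted p = 0.0156). That fit was the 1 of 13 alternatives in which Arg1 passed. Arginase 1 is also a gene of macrophages, so their markers are given beside it. Of 13 alveolar macrophage markers, 4 were called higher in CGD CD101pos cells and 0 lower, with summed levels of 605 to 1058 CPM in CGD CD101pos and 247 to 662 CPM in WT CD101pos libraries. In CD101neg cells 7 of the 13 were called lower in CGD, with sums of 374 to 569 CPM in CGD and 274 to 569 CPM in WT libraries. Of 14 monocyte and interstitial macrophage markers, 6 were called higher and 1 lower in CGD CD101pos cells. Their summed levels overlapped, at 1062 to 1336 CPM in CGD CD101pos and 1130 to 1352 CPM in WT CD101pos libraries. None of the 13 was at 0 in every library of a group, and the part of such cells in the Arg1 and Ass1 differences was not tested.

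Acod1 stood at 2828, 2423 and 2610.5 CPM in CGD CD101pos libraries, against 1619, 1719.5 and 1986 CPM in WT CD101pos libraries. The groups did not overlap, and the log2 fold change was 0.56 ± 0.23 (adjusted p = 0.180, edgeR). Nos2 stood at 53.4, 50.6 and 55.9 CPM in CGD CD101pos libraries, against 4.91, 74.0 and 14.01 CPM in WT CD101pos libraries. As in CD101neg cells, WT replicate 2 exceeded the other WT libraries by more than the CGD libraries differed among themselves. Arg2 stood at 826, 851 and 663 CPM in CGD CD101pos libraries, against 608, 834 and 794 CPM in WT CD101pos libraries. The differences of Nos2 and Arg2 were smaller than their standard errors.

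The genotype difference itself was compared between the sorts by the interaction of genotype with subset. None of the 7 genes passed (edgeR, 2 of 7 at an unadjusted p under 0.05, 0 by DESeq2), beside 0.851% of all genes called. The largest for its error were Ass1 with -1.18 ± 0.49 (adjusted p = 0.277, edgeR) and Sat1 with 0.69 ± 0.33 (adjusted p = 0.348, edgeR). With the title stem that the sorts share as a block over the 12 zymosan libraries, 4 of the 7 passed: Ass1 with -1.22 ± 0.22 (adjusted p = 0.00169, edgeR), Arg1 with -1.69 ± 0.38 (adjusted p = 0.00702), Sat1 with 0.66 ± 0.19 (adjusted p = 0.0270) and Nos2 with 0.60 ± 0.19 (adjusted p = 0.0487). With this block 2229 of all genes were called, against 141 without it. Whether the genotype difference of these genes differs between the sorts thus depends on the pairing, which the libraries showed in WT and not clearly in CGD mice.

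**Figure D3:**
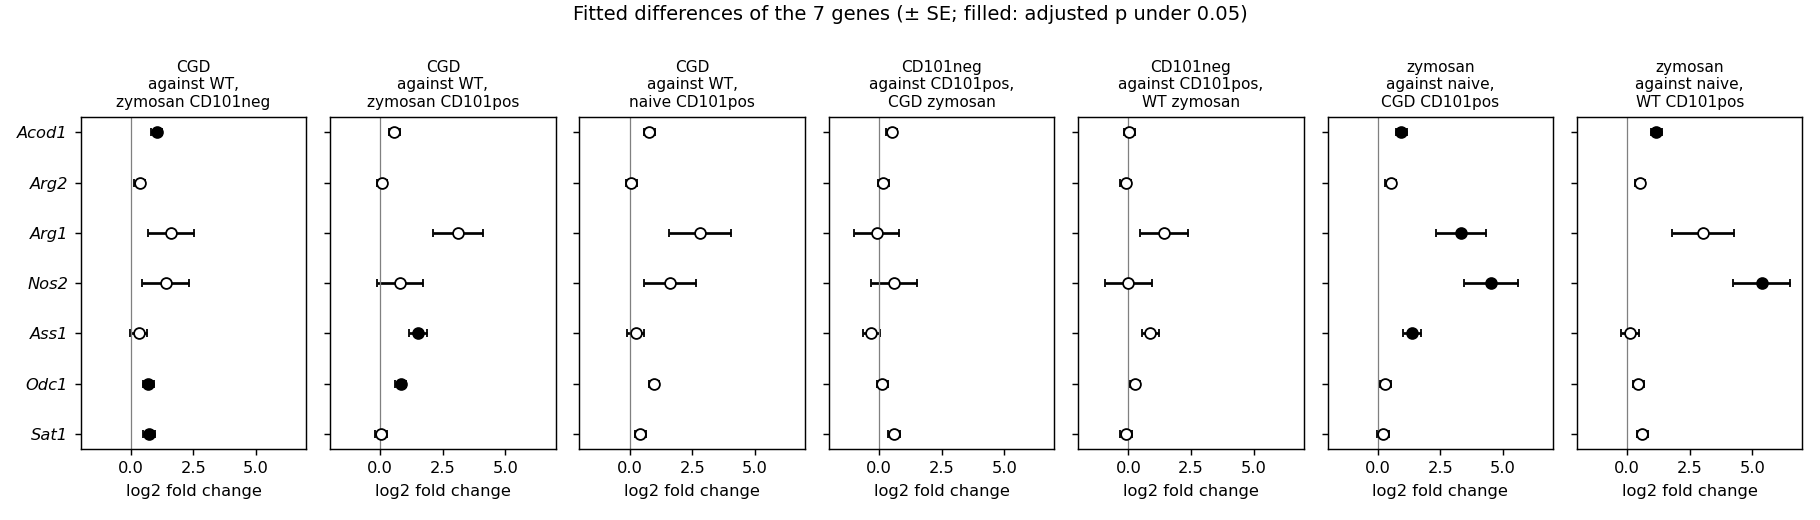
Fitted log2 fold change ± SE of the 7 genes in the 7 pairwise comparisons, from edgeR's fit of all 18 libraries, with filled points for an adjusted p under 0.05. Filled points lie right of 0 in both genotype comparisons after zymosan and in both comparisons of zymosan with naive cells, and no point is filled in the naive and subset comparisons.

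In naive CD101pos neutrophils, none of the 7 differed between genotypes past the threshold in edgeR's test, beside 0.127% of all genes called in either direction. At an unadjusted p under 0.05 there were 3 of 7, and DESeq2 called 1, which was Odc1. Odc1 stood at 6.50, 9.45 and 9.09 CPM in CGD naive libraries, against 4.50, 4.23 and 3.996 CPM in WT naive libraries, with no overlap. The log2 fold change was 0.98 ± 0.22 (adjusted p = 0.118, edgeR, and 0.00308, DESeq2), and it passed in edgeR without CGD naive replicate 1 (1.13, adjusted p = 0.0409). Of 12 alternatives these 2 called Odc1, and the other 10 did not. Acod1 stood at 1049, 1172 and 1851 CPM in CGD naive libraries, against 1014, 717 and 632 CPM in WT naive libraries, and these 2 genes were the ones whose groups did not overlap, beside 7.46% of all genes. The log2 fold change of Acod1 was 0.78 ± 0.23 (adjusted p = 0.350, edgeR).

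The remaining naive levels overlapped between genotypes, and CGD naive replicate 3 was the highest library for several of them. Sat1 stood at 770.4, 856 and 1527 CPM in CGD naive libraries, against 836, 743 and 762 CPM in WT naive libraries. Nos2 stood at 0.904, 0.872 and 5.15 CPM in CGD naive libraries, against 0.565, 0.929 and 0.742 CPM in WT naive libraries. Arg2 stood at 474, 476 and 691 CPM in CGD naive libraries, against 558, 513 and 487 CPM in WT naive libraries. For Sat1, Nos2 and Arg2, as for Acod1 and by a small margin Ass1, the third CGD library was the highest of the 6. It also had 214 CPM of Ly6g, against 21.8 and 23.9 CPM in the other CGD naive libraries and 16.99 to 20.8 CPM in WT naive libraries. The part of this library's neutrophil content in those levels was not tested. Ass1 stood at 5.93, 7.64 and 8.69 CPM in CGD naive libraries, against 5.58, 8.18 and 5.03 CPM in WT naive libraries. Arg1 had few reads in naive cells except in a single library, with 3, 129 and 0 reads in CGD naive libraries and 10, 4 and 2 reads in WT naive libraries. Its fitted log2 fold change of 2.81 ± 1.22 (adjusted p = 0.667, edgeR) rested on that CGD library, replicate 2, without which it was -1.98.

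Zymosan CD101pos cells were next set against naive CD101pos cells of the same genotype, which came from mice of the other sex and another age. In CGD mice Arg1, Nos2, Ass1 and Acod1 were higher after zymosan, and in WT mice Nos2 and Acod1 were. The 4 of 7 in CGD mice stand beside 7.13% of all genes called higher and 12.8% in either direction, and the 2 of 7 in WT mice beside 2.92% and 3.79%. Groups did not overlap for 4 of 7 genes in CGD mice and 5 of 7 in WT mice, all higher after zymosan, beside 16.1% and 11.7% of all genes. Marker genes of other cells moved in the same comparisons: 6 of 6 B cell markers were called lower after zymosan and 9 of 13 alveolar macrophage markers higher in each genotype. Of 14 monocyte and interstitial macrophage markers, 7 were called higher and 2 lower in CGD mice, and 4 higher and 0 lower in WT mice. Of 9 epithelial markers, 3 were called higher in CGD and 0 in WT mice. The part of such cells in these differences was not tested.

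Nos2 changed by the largest factor among the genes called in both genotypes. The 50.6 to 55.9 CPM of CGD zymosan libraries stood against 0.872 to 5.15 CPM in CGD naive libraries, a log2 fold change of 4.53 ± 1.08 (adjusted p = 0.0115, edgeR), which was 5.89 without CGD naive replicate 3. The 4.91 to 74.0 CPM of WT zymosan libraries stood against 0.565 to 0.929 CPM in WT naive libraries, 5.37 ± 1.15 (adjusted p = 0.0155, edgeR). All zymosan libraries of WT mice were above all naive ones, and WT CD101pos replicate 2, the highest, raised the fitted change, which was 3.66 without it (adjusted p = 0.0471). The WT call was lost without any 1 of the 3 WT naive libraries, with adjusted p between 0.0745 and 0.0800.

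Acod1 was 1.93-fold higher after zymosan in CGD mice (log2 0.95 ± 0.23, adjusted p = 0.00920, edgeR) and 2.25-fold higher in WT mice (1.17 ± 0.23, adjusted p = 0.00567, edgeR). The call was lost without CGD naive replicate 1 in CGD mice (0.80, adjusted p = 0.0605) and without WT naive replicate 3 in WT mice (1.04, adjusted p = 0.0537). Ass1 was 2.59-fold higher in CGD mice (1.37 ± 0.35, adjusted p = 0.0142, edgeR). It was lost there without CGD CD101pos replicate 3 (0.97, adjusted p = 0.101) or CGD naive replicate 1 (1.24, adjusted p = 0.0723), and in WT mice the difference of Ass1 was smaller than its standard error. Over all alternatives the Ass1 call in CGD mice was kept in 9 of 12.

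Arg1 was higher in zymosan than in naive cells of CGD mice, with a log2 fold change of 3.33 ± 1.01 (adjusted p = 0.0375, edgeR). The size of this change rested on CGD naive replicate 2, without which it was 8.13 (adjusted p = 3.77e-05). The call was lost without any 1 of the other 5 libraries, with adjusted p between 0.0558 and 0.101. Over all alternatives it was kept in 3 of 12. In WT mice the log2 fold change was 3.03 ± 1.22 (adjusted p = 0.200, edgeR). The alveolar macrophage sums in naive libraries were 173 to 308 CPM in CGD and 169.7 to 176 CPM in WT mice.

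Arg2, Odc1 and Sat1 did not pass in either genotype. Their log2 fold changes were 0.51 ± 0.21 for Arg2 (adjusted p = 0.121, edgeR) and 0.30 ± 0.21 for Odc1 (adjusted p = 0.410) in CGD mice. In WT mice they were 0.52 ± 0.21 for Arg2 (adjusted p = 0.198, edgeR), 0.45 ± 0.22 for Odc1 (adjusted p = 0.308) and 0.61 ± 0.23 for Sat1 (adjusted p = 0.163). The interaction of genotype with zymosan called none of the 7 genes (edgeR, 1 of 7 at an unadjusted p under 0.05, 0 by DESeq2), beside 0.32% of all genes. The largest for its error was Ass1, with 1.25 ± 0.49 (adjusted p = 0.358, edgeR).

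The subsets were compared after zymosan within each genotype. Without regard to which libraries share a number, none of the 7 genes passed in CGD mice (edgeR, 2 at an unadjusted p under 0.05, 0 by DESeq2) or in WT mice (1 and 0), beside 7.35% and 0.44% of all genes called. In CGD mice Sat1, Acod1 and Nos2 were higher in every CD101neg than in every CD101pos library, 3 of 7 beside 14.5% of all genes. The log2 fold changes were 0.60 ± 0.23 for Sat1 (adjusted p = 0.122, edgeR) and 0.50 ± 0.23 for Acod1 (adjusted p = 0.187, edgeR). With the title stem that the sorts share as a block, Nos2, Sat1 and Acod1 passed in CGD mice, while 3924 of all genes were called. The CGD pairs correlated at 0.236, 0.0245 and 0.260, and pairing was not taken as shown there.

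In WT mice, the CD101neg and CD101pos libraries of the same number varied together, so they were also compared within pairs. Arg1 was higher in the CD101neg library of all 3 WT pairs, at 2.67 against 0.851 CPM, 1.32 against 0.184 CPM and 2.38 against 1.32 CPM. Ass1 was likewise higher in all 3, at 15.9 against 9.63 CPM, 8.55 against 5.06 CPM and 13.4 against 5.77 CPM. Without the pairs, the log2 fold changes were 1.43 ± 0.96 for Arg1 (adjusted p = 0.672, edgeR) and 0.88 ± 0.35 for Ass1 (adjusted p = 0.377, edgeR). With the pair as a block both passed, Arg1 with 1.59 ± 0.29 (adjusted p = 0.00160, edgeR) and Ass1 with 0.89 ± 0.16 (adjusted p = 0.00139, edgeR). These were 2 of 7 genes, while the number of all genes called was 1741 with the block and 73 without it. That fit covered the zymosan libraries of both genotypes. The CGD libraries were thus blocked by title stem too and shared its estimate of the spread, although pairing was not taken as shown there. Arg1 was the 1 gene of the 7 whose WT sorts did not overlap, beside 6.73% of all genes higher in this way in CD101neg cells. It rests on few reads, with 183, 69 and 131 reads in WT CD101neg libraries and 56, 9 and 73 in WT CD101pos libraries.

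Around the 7 enzymes lie genes that bring in arginine, carry ornithine onward, supply the cofactor of nitric oxide synthase, complete the polyamine pathway or flank itaconate. In the polyamine list, 18 of 21 genes were tested, and the members that moved with genotype were few. In CGD CD101neg against WT CD101neg cells 2 were called higher and 1 lower, near the 12.9% called over all genes, with a median log2 fold change of -0.25 against -0.08 over all genes, and in CD101pos cells 2 were higher and 0 lower, beside 5.3% of all genes called, with a median of 0.09 against 0.02. Smox, spermine oxidase, averaged 929.7 ± 33.9 CPM in CGD CD101neg and 291 ± 49.9 CPM in WT CD101neg cells, and 660.3 ± 49.4 CPM in CGD CD101pos and 281 ± 83.5 CPM in WT CD101pos cells (SD, n = 3). Its log2 fold changes were 1.67 ± 0.29 in CD101neg cells (adjusted p = 0.000927, edgeR) and 1.23 ± 0.28 in CD101pos cells (adjusted p = 0.0147, edgeR). Eif5a, the translation factor that carries the spermidine-derived residue hypusine, had log2 fold changes of 1.32 ± 0.23 in CD101neg (adjusted p = 0.00112) and 1.26 ± 0.23 in CD101pos cells (adjusted p = 0.00372, edgeR). Smox and Eif5a kept these calls in all 13 alternatives of each sort. Eif5a has processed pseudogenes, and how shared reads were counted is not given in the sources used here. Mtap, which salvages the methylthioadenosine left by polyamine synthesis, fell in CGD CD101neg cells, to 0.982 ± 0.451 CPM against 3.04 ± 0.929 CPM in WT CD101neg cells, a log2 fold change of -1.63 ± 0.35 (adjusted p = 0.00548, edgeR). A fit of these 2 groups alone ended the Mtap call (adjusted p = 0.0512). After zymosan, 3 of 18 were called higher in CGD CD101pos against naive cells, namely Smox, Eif5a and the spermidine synthase gene Srm, and 1 in WT cells, Smox, with none called lower in either, beside 12.8% and 3.79% of all genes called. The Srm call was lost without any 1 of 4 libraries and the WT call of Smox without any 1 of 5, among them WT CD101pos replicate 2 (0.94, adjusted p = 0.115).

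In the list of itaconate and citric acid cycle genes, 0 of 28 were called higher and 7 lower in CGD CD101neg against WT CD101neg cells, beside 12.9% of all genes called in either direction, with a median log2 fold change of -0.22 against -0.08 over all genes. Among them Idh1, a cytosolic isocitrate dehydrogenase, averaged 9.30 ± 2.04 CPM in CGD and 25.0 ± 4.05 CPM in WT CD101neg cells, a log2 fold change of -1.42 ± 0.22 (adjusted p = 0.000469, edgeR). Fh1, fumarase, and Idh2, a mitochondrial isocitrate dehydrogenase, had log2 fold changes of -1.12 ± 0.25 (adjusted p = 0.00694) and -1.36 ± 0.33 (adjusted p = 0.0123, edgeR). The Idh2 call was lost without CGD CD101neg replicate 2 (-1.24, adjusted p = 0.0642), and the Fh1 call in a fit of these 2 groups alone (adjusted p = 0.0672). The others called lower, named after their values were seen, were less stable. Slc25a10 was kept in 11 of 13 alternatives, Aco1 and Keap1 in 8 each and Suclg2 in 6. In CD101pos cells 0 of 28 were higher and 1 lower, beside 5.3% of all genes: Acly, ATP citrate lyase, with -0.67 ± 0.18 (adjusted p = 0.0356, edgeR), a call lost without any 1 of 5 of the 6 libraries and in a fit of these 2 groups alone (adjusted p = 0.132). In CD101neg cells, where these genes fell, 7 of 13 alveolar macrophage markers and 9 of 14 monocyte and interstitial macrophage markers were also called lower in CGD, that second list with sums of 854 to 1054 CPM in CGD and 1165 to 1316 CPM in WT libraries, and the part of such cells was not tested.

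In the nitric oxide and tetrahydrobiopterin list, 1 of 14 genes rose and 3 fell in CGD CD101neg against WT CD101neg cells, beside 12.9% of all genes called, with a median of -0.36 against -0.08 over all genes. The genes that fell were Qdpr, which regenerates tetrahydrobiopterin (-1.18 ± 0.35, adjusted p = 0.0331), Spr, sepiapterin reductase (-1.21 ± 0.31, adjusted p = 0.0165), and Gucy1a1, a subunit of the nitric oxide receptor soluble guanylate cyclase (-1.01 ± 0.22, adjusted p = 0.00586, edgeR). In a fit of these 2 groups alone Gucy1a1 did not pass (adjusted p = 0.0624), and nor did Qdpr (adjusted p = 0.0787). The gene that rose, Gch1, GTP cyclohydrolase and the first enzyme of tetrahydrobiopterin synthesis, is named after its value was seen. It averaged 21.4 ± 6.77 CPM in CGD CD101neg and 11.4 ± 3.87 CPM in WT CD101neg cells, with 0.91 ± 0.29 (adjusted p = 0.0494, edgeR), a call kept in 6 of 13 alternatives. The Qdpr and Spr calls were each lost without any 1 of 3 libraries, for Qdpr among them CGD CD101neg replicate 2 (-0.94, adjusted p = 0.150), and the macrophage markers that were lower in CGD CD101neg cells stand beside these genes too. None of the 14 passed in CD101pos cells (edgeR, 2 at an unadjusted p under 0.05, 0 by DESeq2).

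Of the arginine transport genes, 9 of 10 were tested and none passed in CGD CD101neg against WT CD101neg cells (edgeR, 2 at an unadjusted p under 0.05, 1 by DESeq2). In CD101pos cells 1 passed, beside 5.3% of all genes: Slc7a2, a cationic amino acid transporter, with 18.4 ± 10.6 CPM in CGD and 5.57 ± 2.57 CPM in WT cells and a log2 fold change of 1.73 ± 0.49 (adjusted p = 0.0484, edgeR). That call was kept in 5 of 13 alternatives and was lost, among others, without CGD CD101pos replicate 3 (1.15, adjusted p = 0.262). Slc7a2 was also higher after zymosan, by a log2 fold change of 3.90 ± 0.54 in CGD (adjusted p = 0.000113) and 3.03 ± 0.54 in WT mice (adjusted p = 0.00315, edgeR), and the alveolar macrophage markers given beside Arg1 moved in the same comparisons. None of 10 tested genes of arginine, ornithine and proline metabolism passed between genotypes in CD101neg (edgeR, 1 at an unadjusted p under 0.05, 0 by DESeq2) or CD101pos cells (1 and 1). After zymosan, 1 of those 10, Gatm, which makes guanidinoacetate and ornithine from arginine and glycine, was higher in CGD mice (1.69 ± 0.43, adjusted p = 0.0134) and in WT mice (2.01 ± 0.45, adjusted p = 0.0143, edgeR). The Gatm call was lost without either of 2 libraries in each genotype, among them CGD CD101pos replicate 3 (1.47, adjusted p = 0.0603) and WT naive replicate 3 (1.85, adjusted p = 0.0871).

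Of 20 transcription factors and receptors known to act on the 7 genes, 2 rose and 4 fell in CGD CD101neg cells, and 3 rose and 1 fell in CGD CD101pos cells, beside 12.9% and 5.3% of all genes called, with medians of 0.05 and -0.06. Nfkb1, the p50 precursor of NF-kB, averaged 158 ± 21.8 CPM in CGD CD101neg and 53.6 ± 1.83 CPM in WT CD101neg cells, with a log2 fold change of 1.56 ± 0.18 (adjusted p = 2.22e-05, edgeR), and 1.05 ± 0.17 in CD101pos cells (adjusted p = 0.00190, edgeR). Irf1, an interferon response factor, averaged 1136 ± 478 CPM in CGD CD101neg and 250.3 ± 36.6 CPM in WT CD101neg cells, with 2.18 ± 0.28 (adjusted p = 8.9e-05, edgeR), and 1.57 ± 0.28 in CD101pos cells (adjusted p = 0.00296, edgeR). Myc, an activator of Odc1, rose in CGD CD101pos cells to 7.94 ± 1.73 CPM, against 2.82 ± 0.969 CPM in WT CD101pos cells, with 1.49 ± 0.29 (adjusted p = 0.00533, edgeR). Pparg, a lipid-sensing nuclear receptor, fell in CGD CD101neg cells with -1.47 ± 0.35 (adjusted p = 0.00978, edgeR), and passed no longer without CGD CD101neg replicate 2 (-1.37, adjusted p = 0.0516). Alveolar macrophages express Pparg, and the part of their lower markers in this difference was not tested.

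**Figure D4:**
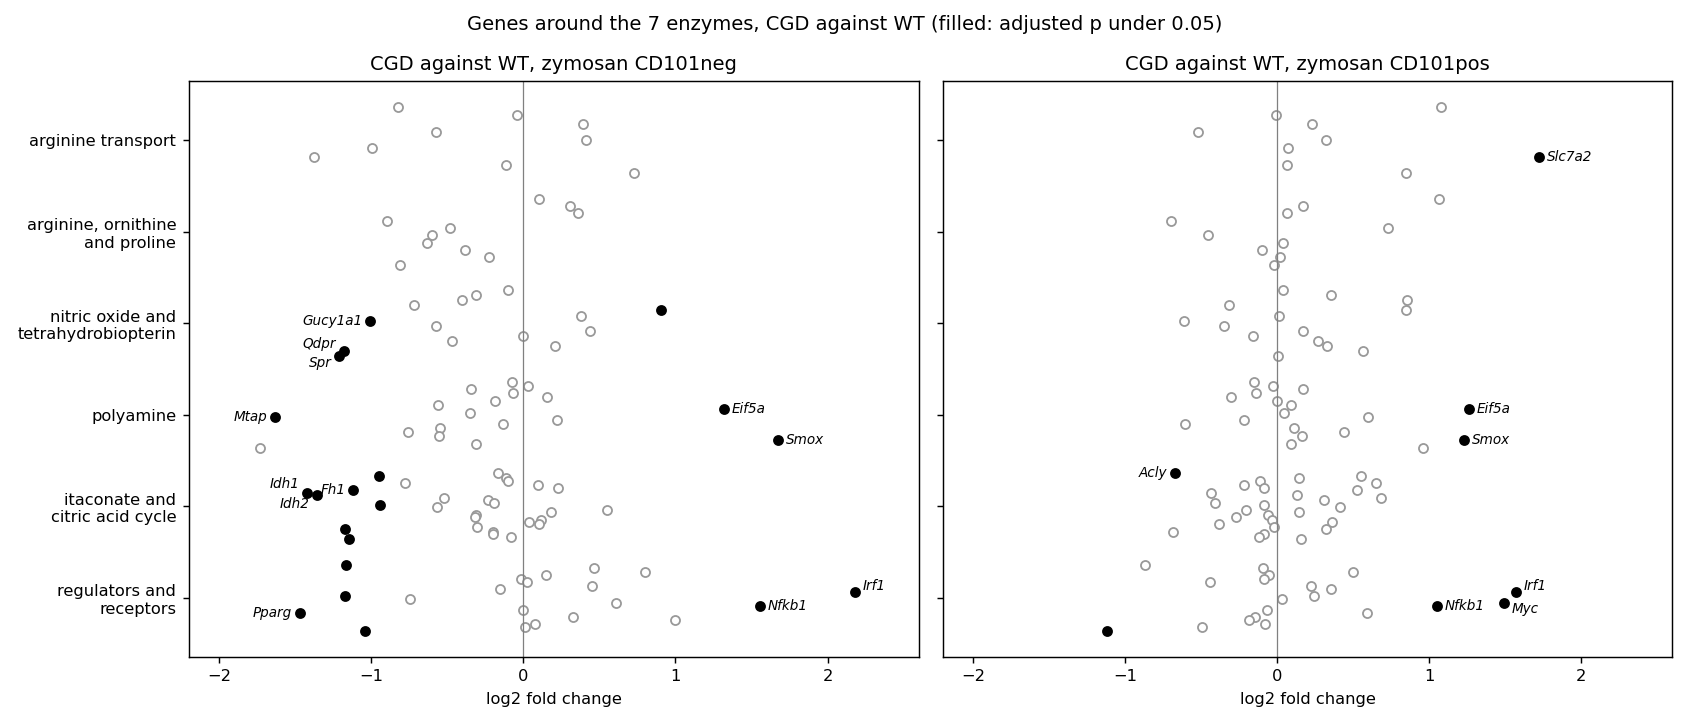
Log2 fold change of each tested gene in the 6 lists of surrounding genes, CGD against WT, in zymosan CD101neg (left) and CD101pos cells (right), from edgeR's fit, with filled points for an adjusted p under 0.05 and up to 3 names per list. In the itaconate and citric acid cycle list all 7 filled points of the left panel lie below 0, while Smox, Eif5a, Nfkb1 and Irf1 are filled above 0 in both panels.

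The genes whose levels followed each enzyme most closely over the 18 libraries were sought among 5890 genes, as Pearson's r of log2 CPM. These libraries share groups, scaling and marker content, so r is given as a description. Acod1 was most like Cxcl2, a neutrophil-attracting chemokine (0.96), Ptpn12, a tyrosine phosphatase (0.96), and Upp1, uridine phosphorylase (0.95). Nos2 was most like Tgm1, a transglutaminase (0.97), Acvr1b, an activin receptor (0.97), and Ggt1, gamma-glutamyltransferase (0.96). Arg1 was most like Sphk1, sphingosine kinase (0.96), Clec4n, the fungal pattern receptor dectin-2 (0.95), and Cxcl16, a chemokine (0.95). Arg2 was most like Cd177, a neutrophil surface glycoprotein (0.94), Rab1a, a small GTPase (0.94), and Riok3, a kinase (0.93). Sat1 was most like Slc37a3, Mrgpra2a and Katna1 (0.96, 0.96 and 0.94). Ass1 was most like Metap2, a methionine aminopeptidase (0.92), Psmd2, a proteasome subunit (0.90), and Ifi207 (0.88), and Odc1 was most like Tnfrsf9, the receptor 4-1BB (0.90), Spp1, osteopontin (0.89), and Ptprj (0.89). The 7 lists of 3 genes did not share a gene.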

How the data were processed

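The authors deposited raw read counts per gene. The submitters' processing notes name featureCounts 1.4.6-p5, Subread and STAR 2.5.1a. RNA was extracted with RNeasy Plus Micro and made into SMARTer libraries, per the labels' protocols. No genome build, annotation or strand setting was given in the sources used here. Without the strand setting, reads of a gene and of an overlapping antisense gene may be mixed. Of 40757 lines, 276 repeated an ID and were counted once. Libraries held 33.7 to 67.9 M counts.

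Counts were tested with edgeR 4.0.16 in R 4.3.3 (robust quasi-likelihood test, TMM factors, filterByExpr by group, 1 fit of all 18 libraries, 12 residual degrees of freedom), with Benjamini-Hochberg adjustment over 16575 genes at 0.05. Besides 7 pairwise comparisons, 2 interactions were tested, the change from CD101pos to CD101neg in CGD minus the same change in WT, and the change with zymosan in CGD minus the same change in WT. The SE is the size of the log2 fold change divided by the square root of F. CPM use TMM factors, and log2 CPM a prior count of 2. Lengths are merged exons of the GENCODE annotation given here.

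The 7 genes, gene lists, motifs and tests were chosen with earlier results of these data known. All 7 genes are named in every comparison, with up to 3 called genes of the lowest p per list and the 3 genes of the highest r per enzyme, among genes with a mean of at least 10 CPM in some group, leaving out predicted gene models. Prmt1, a nitric oxide list gene, was not analysed here, and 1 other gene of that list is not reported here. In WT zymosan mice, deviations from the group means of the CD101neg and CD101pos libraries of the same number correlated at 0.487, 0.425 and 0.312, so the numbers, which come from a title stem that the sorts share, were taken to pair them. Alternatives were RLE size factors, library size alone, a fit without the low-count filter, a fit of the compared groups alone, replicate blocks, DESeq2 1.42.0 and leaving out each library. Leaving out both WT zymosan libraries of number 2 was added after seeing the data. The test was tried on simulated data with known changes in CGD CD101neg libraries. That trial held 16146 genes. Of 100 changed 2-fold the test recovered 22, and of 100 changed 4-fold 83, so most 2-fold changes were missed there. Unchanged genes made up 2.78% of the calls in the trial. In the deposited counts, 2139 of 16575 genes were called in CGD against WT CD101neg cells. Recovery with more genes changed than in the trial was not tested.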

Additional observations from a re-analysis of the deposited data

Results flagged for a closer look

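Interaction tests picked out 4 named genes: Slc7a2, Mtap and Fh1 from the lists around the enzymes, and Cd101, which served to check the sort. The CD101neg against CD101pos difference was lower in CGD than in WT mice for Slc7a2 (log2 -3.10 ± 0.70 SE, adjusted p = 0.0431, edgeR), Mtap (-2.23 ± 0.49, adjusted p = 0.0372, edgeR) and Fh1 (-1.64 ± 0.35, adjusted p = 0.0312, edgeR). Group means were, for Slc7a2, 3.53 CPM in CGD CD101neg and 18.4 in CGD CD101pos cells, and 9.16 in WT CD101neg and 5.57 in WT CD101pos cells. For Mtap they were 0.982 and 3.70 CPM in the CGD sorts and 3.04 and 2.44 CPM in the WT sorts, and for Fh1 3.37 and 9.74 CPM in the CGD sorts and 7.30 and 6.76 CPM in the WT sorts, CD101neg before CD101pos in each. In the same test 4 of 13 alveolar macrophage markers and 7 of 14 monocyte and interstitial macrophage markers were also called lower, and the part of such cells was not tested. The calls were kept in 7 of 20 alternatives for Slc7a2, 12 of 20 for Mtap and 12 of 20 for Fh1. The zymosan against naive difference of Cd101, the gene of the sorting marker, was lower in CGD than in WT mice by -1.63 ± 0.32 (adjusted p = 0.0349, edgeR), a call kept in 8 of 19 alternatives. None of the 7 enzymes was among the genes picked out in this way.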

How the results depend on the processing

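Of 38 differences of the 7 enzymes that exceeded their standard error, 2 changed sign in some alternative: Arg2 in CGD against WT CD101neg cells, -0.13 with library size alone, and Arg1 in CGD against WT naive cells, -1.98 to 3.55 over left-out libraries. In both the cause was not tested. Another 25 were smaller than their standard error, of which 21 changed sign in some alternative. The number of the 7 enzymes called moved as follows. With library size alone it was 1 in CGD against WT CD101neg cells, 0 in CD101pos cells and 2 for zymosan in CGD. Without the low-count filter it was 1 in CD101neg and 1 in CD101pos cells. DESeq2 called 1 in naive cells, and leaving out both WT zymosan libraries of number 2 left 0 in CD101pos cells. Over left-out libraries it was 1 to 2 in CGD against WT CD101neg cells, 0 to 2 in CD101pos and 0 to 1 in naive cells, 1 to 4 for zymosan in CGD and 0 to 2 in WT mice. Counts of all genes moved by over 1.5 times as follows. Library size alone gave 3985 in CD101neg cells (10.4% of them higher, against 51.7% with TMM), 9 in naive cells and 13 for the interaction with zymosan. Under it the share of calls that were higher was 38.6% against 52.3% in CD101pos cells, 6.59% against 44.5% for the subsets of CGD mice, 26.5% against 55.5% and 30% against 76.9% for zymosan in CGD and WT mice, and 0.61% against 21.3% and 69.2% against 50.9% for the interactions with subset and zymosan. It moved the median of all genes to -0.57 in CD101neg cells, -0.34 and 0.13 for the subsets of CGD and WT mice, -0.24 and -0.33 for zymosan in CGD and WT mice, and -0.45 for the interaction with subset. A fit of only the groups compared gave 1062 in CD101neg, 572 in CD101pos and 6 in naive cells, 0 for the subsets of WT mice and 62 for the interaction with subset. No filter gave 140 for the subsets of WT mice, 327 for the interaction with subset and 119 for that with zymosan. DESeq2 gave 1405 in CD101pos cells, 110 in naive cells, 2136 and 329 for the subsets of CGD and WT mice, 1222 for zymosan in WT mice, and 589 and 261 for the interactions with subset and zymosan. Over left-out libraries the counts were 1164 to 1938 in CD101neg, 320 to 1125 in CD101pos and 2 to 64 in naive cells for genotype, 321 to 1185 and 3 to 400 for the subsets of CGD and WT mice, 1170 to 1891 and 263 to 560 for zymosan in CGD and WT mice, and 43 to 497 and 5 to 54 for the interactions with subset and zymosan.

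With the shared title stem as a replicate block, in a fit of the zymosan libraries of both genotypes, the subsets gave 1741 genes and 2 enzymes in WT mice. In CGD mice the pairs correlated at 0.236, 0.0245 and 0.260, each library best with its own number but 1 pair under 0.1, so pairing was not taken as shown there, and the block gave 3924 genes and 3 enzymes (Nos2 0.56, Sat1 0.59 and Acod1 0.47, all higher in CD101neg cells). The interaction with subset gave 2229 genes and 4 enzymes, Arg1 with -1.69, Ass1 with -1.22, Sat1 with 0.66 and Nos2 with 0.60. The replicate number as a block over all 18 libraries ended the call of Sat1 in CD101neg cells (0.73, adjusted p = 0.0544, edgeR) and of Arg1 for zymosan in CGD mice (3.28, adjusted p = 0.0685, edgeR), and no other call of an enzyme. Depth limits Arg1 most, which had at most 129 reads in a naive library.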
